A study of Mus musculus with 9 samples.

Results

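Neuropeptide precursors are the long proteins from which neurons cut their signalling peptides, and 10 genes that encode them were examined in mouse striatum at embryonic day E17.5. The members Penk, Pdyn, Pnoc, Tac1, Sst, Npy, Nts, Cartpt, Cck and Adcyap1 were found by matching the Ensembl identifiers of the count tables to gene symbols of GENCODE M21, which gave 10 of 44886 genes. RNA was read from the striatum of 9 embryos, 3 in each genotype, each as its own library. Control embryos are named only as such in the labels. The study's methods say that heterozygous embryos served as controls, without giving the alleles of these 3. Islet1Cre;Ebf1fl/- embryos carry 1 floxed and 1 deleted copy of Ebf1, a transcription factor of direct pathway striatal projection neurons (dSPN), together with a Cre recombinase that the study describes as active in dSPN and cholinergic interneurons. Dlx5/6::Cre;Ebf1fl/- embryos carry the same pair of Ebf1 copies with a Cre that the study describes as active in all striatal projection neurons and all interneurons. The labels give C57BL/6 for every embryo, the Islet1Cre line having been kept on B6D2F1/J according to the methods, and dissected striatum holds many cell types, so each value is an average over them.

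Precursors are packed into dense-core vesicles, cut by proprotein convertases, trimmed and often amidated, and the released peptides act on G protein-coupled receptors. In the mature striatum dSPN contain Tac1 (substance P) and Pdyn (dynorphin), whereas indirect pathway neurons (iSPN) contain Penk (enkephalin), so that these transcripts serve as labels of the projection neuron classes. Sst and Npy are made together by a class of striatal interneurons, and the remaining members are known from smaller or more regional groups of cells.

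The counts on genes totalled 16548083 to 41507049 per embryo, and no pair of embryos of a genotype agreed within sampling noise. Ebf1 itself does not check the labels, since its normalized counts were 7945 to 14208 in controls, 13210.0 to 15343 in Islet1Cre;Ebf1fl/- and 11774 to 15312 in Dlx5/6::Cre;Ebf1fl/-, and reads from the exons that remain are part of that value. Control replicate 3 (12074 normalized counts of Xist and 59.6 of the Y-linked Ddx3y) and Islet1Cre;Ebf1fl/- replicate 3 (7269.9 and 583) held transcripts of both sexes. Control replicate 2 had 3.27 of Xist and 917 of Ddx3y, whereas the Dlx5/6::Cre;Ebf1fl/- embryos had 10791 to 14766 of Xist and 0 of Ddx3y. Sex was therefore not balanced between the genotypes, and its part in the values was not tested. Checked against the tissue label, 8 markers of striatal projection neurons were all detected and summed to 3215 to 3869 CPM, that is, counts scaled to the total of each library. The 9 cortical excitatory neuron markers summed to 226, 99.4 and 109 CPM in Dlx5/6::Cre;Ebf1fl/-, each above every embryo of the other genotypes. Their sums were 38.6 to 94.3 CPM in controls and 38.6 to 72.6 in Islet1Cre;Ebf1fl/-. Dlx5/6::Cre;Ebf1fl/- replicate 1 stood apart with the highest of these sums. Its 10 precursors summed to 309 CPM, against 441 to 703 in the other embryos. Over the 9 cortical markers, all tested, 9 had a positive fold change and 0 passed edgeR's test in Dlx5/6::Cre;Ebf1fl/- against control. There 6 had an unadjusted p under 0.05, against 15.5% of all genes, and DESeq2 called 1, against 857 of 16250 genes. The part of these markers in the results below was not tested. Embryo codes began with IE or D. All Islet1Cre;Ebf1fl/- embryos had IE, all Dlx5/6::Cre;Ebf1fl/- embryos had D, and the controls had 2 with IE and 1 with D, so that code and genotype can be told apart only through the controls.

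Precursor levels spanned several orders of magnitude in control striatum. On the scale of CPM per kilobase of exon, which allows genes to be compared, Npy was highest with 212 ± 38.9 (SD, n = 3) and Sst followed with 162 ± 5.22. Penk reached 93.8 ± 11.1, Tac1 38.1 ± 16.8 and Pdyn 19.9 ± 3.09 on the same scale. Each of these 5 genes lay above the next in every control, and with the longest annotated transcript as length Tac1 was at 65.6. Nts (2.79 ± 0.984) and Pnoc (2.55 ± 0.440) were far lower and overlapped each other. Cck (0.236 ± 0.0915), Cartpt (0.0968 ± 0.0719) and Adcyap1 (0.0332 ± 0.0288) closed the order, with each neighbour overlapping the next. The interneuron peptides thus had higher levels per length than the projection neuron peptides in these whole-tissue libraries.

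The order of levels per length was nearly kept in the mutants. In Islet1Cre;Ebf1fl/- striatum the range of Npy (173 ± 37.8) overlapped that of Sst (162 ± 26.7), with Npy above Sst within each embryo. There the mean of Cartpt (0.467 ± 0.241) stood above that of Cck (0.270 ± 0.106) with overlapping embryos. In Dlx5/6::Cre;Ebf1fl/- striatum the mean levels of Sst (128 ± 27.4), Npy (124 ± 35.5) and Penk (104 ± 33.9) overlapped each other, and so did Tac1 (17.47 ± 2.83) and Pdyn (11.6 ± 3.996). The ranges of Npy and Penk, which were separate in controls, therefore overlapped there. Within each of these embryos Npy was still above Penk (84.5 against 65.4, 152.6 against 128.5 and 135.8 against 118.3). Tac1 was likewise above Pdyn within each of them.

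**Figure D1:**
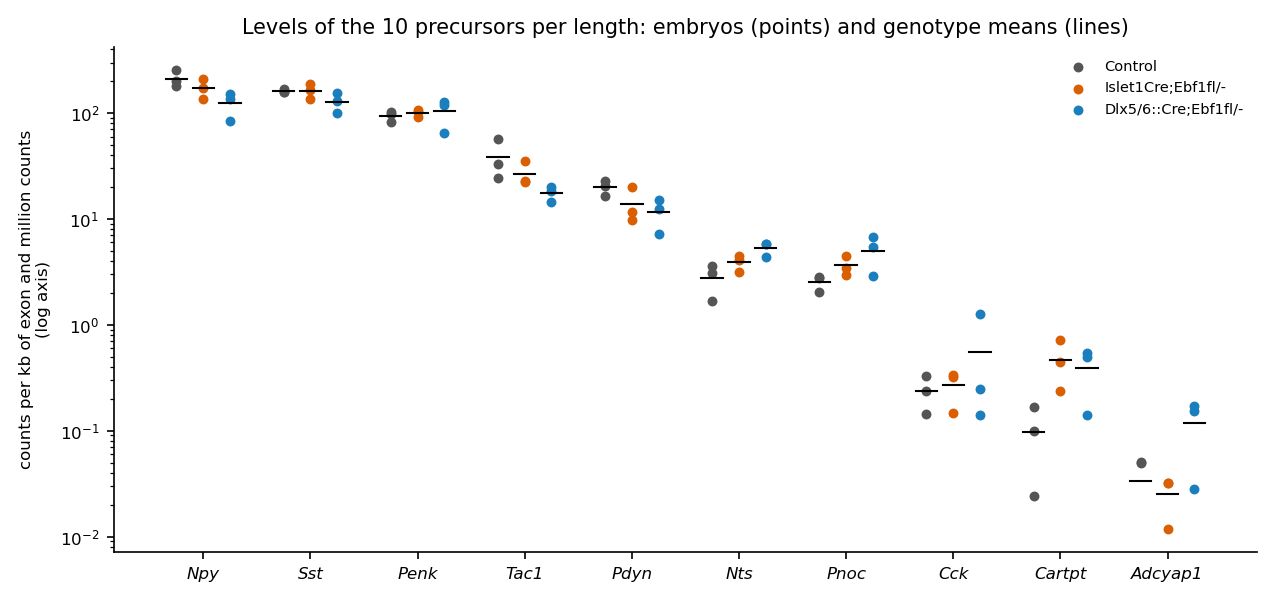
Levels of the 10 precursors in CPM per kilobase of exon (log axis), with a point per embryo and a line at the mean of each genotype (n = 3). Control means run from 212 for Npy down to 0.0332 for Adcyap1, whose single control embryo at 0 has no point.

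No precursor passed the test of expression in any of 4 comparisons. The test was edgeR's quasi-likelihood test over 16368 genes with Benjamini-Hochberg adjustment and a threshold of 0.05, and 9 of the 10 members entered it, Adcyap1 being left out by the filter on low counts. Against control, 0 of 9 passed in Islet1Cre;Ebf1fl/- (0.971% of all genes tested passed there), 0 of 9 in Dlx5/6::Cre;Ebf1fl/- (2.39% of all genes) and 0 of 9 for the mean of both mutant genotypes (2.76% of all genes). Between the mutants 0 of 9 passed, as did 0% of all genes. At an unadjusted p under 0.05 the members numbered 1 of 9 in Islet1Cre;Ebf1fl/-, against 7.93% of all genes, and 6 of 9 in Dlx5/6::Cre;Ebf1fl/-, against 15.5%. They numbered 6 of 9 for the mean of both mutants, against 12.8%, and 0 of 9 between the mutants, against 5.16%. The 6 in Dlx5/6::Cre;Ebf1fl/- were Pdyn, Tac1 and Npy, with negative fold changes, and Nts, Cartpt and Pnoc, with positive ones. The DESeq2 Wald test called 0, 3, 0 and 0 members in the comparisons of Islet1Cre;Ebf1fl/- with control, of Dlx5/6::Cre;Ebf1fl/- with control, between the mutants, and of both mutants with control, the 3 being Npy, Nts and Pnoc. In that comparison of Dlx5/6::Cre;Ebf1fl/- with control DESeq2 called 857 of all 16250 genes given an adjusted p. Without the filter on low counts edgeR called 5 members there (Pdyn, Tac1, Npy, Nts and Pnoc), against 708 of 26563 genes.

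Seen embryo by embryo, the genotypes were separate for several members. In Dlx5/6::Cre;Ebf1fl/- every embryo lay below every control for 4 of 9 members (Pdyn, Tac1, Sst and Npy), against 11.3% of all genes, and above every control for 1 of 9 (Nts), against 9.63%. In Islet1Cre;Ebf1fl/- 2 of 9 members (Cartpt and Pnoc) lay above every control, against 7.83% of all genes, and 0 of 9 below, against 7.28%. Between the mutants, Tac1 was lower and Nts higher in every Dlx5/6::Cre;Ebf1fl/- embryo, where 5.39% of all genes were lower and 4.96% higher. In tissue counts, fewer cells of a type and less RNA per cell cannot be told apart.

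**Figure D2:**
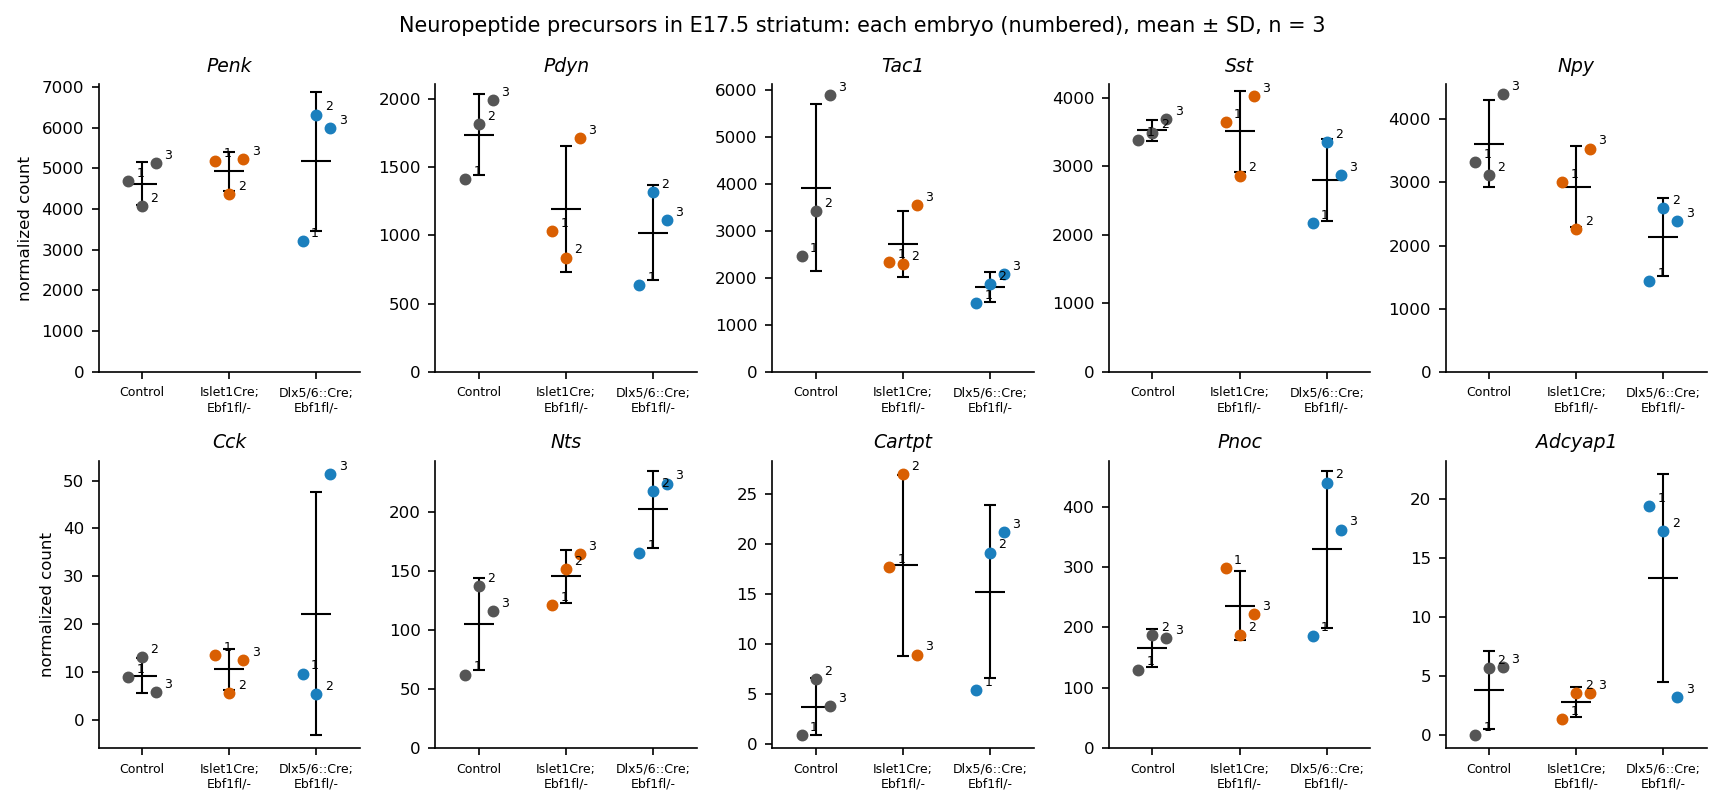
Normalized counts (counts divided by size factors) of the 10 precursors in each embryo, numbered by replicate, with bars for the mean ± SD of each genotype (n = 3) and axes that differ between genes. Tac1, Pdyn, Sst and Npy of all 3 Dlx5/6::Cre;Ebf1fl/- embryos lie below the controls, Nts lies above them, and replicate 1 is the lowest of the 3 for Penk, Pdyn, Tac1, Sst, Npy, Nts, Cartpt and Pnoc.

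Penk (ENSMUSG00000045573), the enkephalin precursor of iSPN, lies on chromosome 4 from 4133531 to 4138819 of GRCm38 on the minus strand, where an antisense gene, A830012C17Rik, overlaps it. Reads of both cannot be told apart where strand was not used in counting, which is not stated. The normalized counts of Penk were 4685, 4064 and 5123 in controls, 5190.5, 4373 and 5226 in Islet1Cre;Ebf1fl/- and 3219, 6322 and 5988 in Dlx5/6::Cre;Ebf1fl/-. Controls lay inside the range of the mutants, and Dlx5/6::Cre;Ebf1fl/- replicate 1 alone was below them all. The log2 fold change of Penk over control was 0.09 (95% interval -0.37 to 0.55, adjusted p = 0.999, edgeR) in Islet1Cre;Ebf1fl/- and 0.16 (-0.29 to 0.62, adjusted p = 0.748, edgeR) in Dlx5/6::Cre;Ebf1fl/-. Without Dlx5/6::Cre;Ebf1fl/- replicate 1 the second value was 0.41, and without replicate 2 it was -0.01.

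Pdyn (ENSMUSG00000027400), which encodes dynorphins and is a dSPN and striosome transcript, lies on chromosome 2 from 129686565 to 129699844 on the minus strand. The normalized counts of Pdyn were 1410.1, 1815 and 1989 in controls, 1029, 836 and 1715 in Islet1Cre;Ebf1fl/- and 633, 1315 and 1114 in Dlx5/6::Cre;Ebf1fl/-. All Dlx5/6::Cre;Ebf1fl/- embryos were below the controls, whereas Islet1Cre;Ebf1fl/- replicate 3 lay within them. The log2 fold change of Pdyn over control was -0.55 (95% interval -1.19 to 0.08, adjusted p = 0.747, edgeR) in Islet1Cre;Ebf1fl/- and -0.77 (-1.40 to -0.13, adjusted p = 0.232, edgeR) in Dlx5/6::Cre;Ebf1fl/-. Leaving out Islet1Cre;Ebf1fl/- replicate 3 gave -0.91 in the first comparison, and leaving out Dlx5/6::Cre;Ebf1fl/- replicate 1 gave -0.52 in the second.

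Pnoc (ENSMUSG00000045731) encodes the precursor of nociceptin, an opioid-related peptide, and lies on chromosome 14 from 65400673 to 65425472 on the minus strand. The normalized counts of Pnoc were 130.3, 187.0 and 182 in controls, 299, 188 and 222 in Islet1Cre;Ebf1fl/- and 186.7, 439.8 and 362 in Dlx5/6::Cre;Ebf1fl/-. Every Islet1Cre;Ebf1fl/- embryo was above the controls, the lowest by about 1 normalized count, and Dlx5/6::Cre;Ebf1fl/- replicate 1 lay just below the highest control. Pnoc had a log2 fold change over control of 0.50 (95% interval -0.16 to 1.16, adjusted p = 0.849, edgeR) in Islet1Cre;Ebf1fl/- and 0.99 (0.33 to 1.64, adjusted p = 0.132, edgeR) in Dlx5/6::Cre;Ebf1fl/-. Without Dlx5/6::Cre;Ebf1fl/- replicate 1 the second value was 1.27 with an adjusted p of 0.00752 by edgeR. With that embryo kept, Pnoc was called by DESeq2 (adjusted p = 0.0181) and by edgeR without a filter (adjusted p = 0.0296), so the call depended on the embryo, the test and the filter. The mean of both mutants was 0.74 (adjusted p = 0.240, edgeR), and 0.88 without that embryo (adjusted p = 0.0167, edgeR).

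Tac1 (ENSMUSG00000061762), the precursor of substance P and neurokinin A in dSPN, lies on chromosome 6 from 7554879 to 7565834 on the plus strand. The normalized counts of Tac1 were 2462, 3418 and 5900 in controls, 2346, 2289 and 3544 in Islet1Cre;Ebf1fl/- and 1467, 1868 and 2088 in Dlx5/6::Cre;Ebf1fl/-. Control replicate 3 was far above the other embryos, and all Dlx5/6::Cre;Ebf1fl/- embryos were below both other genotypes. The log2 fold change of Tac1 over control was -0.53 (95% interval -1.15 to 0.09, adjusted p = 0.761, edgeR) in Islet1Cre;Ebf1fl/-. In Dlx5/6::Cre;Ebf1fl/- it was -1.12 (-1.75 to -0.49, adjusted p = 0.0776, edgeR), the smallest adjusted p of any member in the 4 comparisons. Without control replicate 3 these values were -0.11 and -0.70, and without control replicate 1 the second was -1.36 with an adjusted p of 0.0493 by edgeR. Of 16 alternative fits of the comparison of Dlx5/6::Cre;Ebf1fl/- with control, 4 called Tac1, and its fold change was negative in all 16. The 4 were the fits without a filter, with the code prefix, with the replicate number as a term and without control replicate 1. Nts and Pnoc were called in 3 each.

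Sst (ENSMUSG00000004366) encodes the precursor of somatostatin, an inhibitory peptide of interneurons, and lies on chromosome 16 from 23889573 to 23890958 on the minus strand. Sst had normalized counts of 3390.1, 3496 and 3693 in controls, 3644, 2866 and 4023 in Islet1Cre;Ebf1fl/- and 2169, 3354 and 2876 in Dlx5/6::Cre;Ebf1fl/-. The controls were close together, the Islet1Cre;Ebf1fl/- embryos lay on both sides of them, and all Dlx5/6::Cre;Ebf1fl/- embryos were below. The log2 fold change of Sst over control was -0.01 (95% interval -0.35 to 0.33, adjusted p = 0.999, edgeR) in Islet1Cre;Ebf1fl/- and -0.33 (-0.67 to 0.01, adjusted p = 0.331, edgeR) in Dlx5/6::Cre;Ebf1fl/-. Without Dlx5/6::Cre;Ebf1fl/- replicate 1 the second value was -0.18. Of the 10 interneuron markers examined, which include Sst and Npy, 9 had a negative fold change in Dlx5/6::Cre;Ebf1fl/- and 0 passed edgeR's test. Among them 4 had an unadjusted p under 0.05, against 15.5% of all genes. DESeq2 called 3 (Lhx6, Nos1 and Npy), against 857 of 16250 genes.

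Npy (ENSMUSG00000029819) encodes neuropeptide Y, the peptide that shares interneurons with somatostatin, and lies on chromosome 6 from 49822710 to 49829507 on the plus strand. The normalized counts of Npy were 3322, 3121 and 4404 in controls, 3008, 2255 and 3537 in Islet1Cre;Ebf1fl/- and 1441, 2599.7 and 2382 in Dlx5/6::Cre;Ebf1fl/-. All Dlx5/6::Cre;Ebf1fl/- embryos were below the controls, and the Islet1Cre;Ebf1fl/- embryos overlapped both. Npy had a log2 fold change over control of -0.31 (95% interval -0.80 to 0.18, adjusted p = 0.928, edgeR) in Islet1Cre;Ebf1fl/- and -0.76 (-1.25 to -0.26, adjusted p = 0.127, edgeR) in Dlx5/6::Cre;Ebf1fl/-. Without Dlx5/6::Cre;Ebf1fl/- replicate 1 the second value was -0.54, and without control replicate 3 it was -0.59.

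Nts (ENSMUSG00000019890) encodes the precursor of neurotensin and neuromedin N, and lies on chromosome 10 from 102481756 to 102490486 on the minus strand. Nts had normalized counts of 62.4, 137 and 116 in controls, 121, 152 and 165 in Islet1Cre;Ebf1fl/- and 165, 218 and 224 in Dlx5/6::Cre;Ebf1fl/-. The Dlx5/6::Cre;Ebf1fl/- embryos were above all controls and all Islet1Cre;Ebf1fl/- embryos, the lowest of them only just. The log2 fold change of Nts over control was 0.46 (95% interval -0.14 to 1.07, adjusted p = 0.840, edgeR) in Islet1Cre;Ebf1fl/- and 0.94 (0.34 to 1.54, adjusted p = 0.119, edgeR) in Dlx5/6::Cre;Ebf1fl/-. Leaving out single embryos moved the second value between 0.67 and 1.18 with no call.

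Cartpt (ENSMUSG00000021647), the precursor of the CART peptides, was near the limit of detection. It lies on chromosome 13 from 99898489 to 99901091 on the minus strand and had 1, 8 and 4 counts in controls, 13, 38 and 5 in Islet1Cre;Ebf1fl/- and 5, 21 and 26 in Dlx5/6::Cre;Ebf1fl/-. After normalization these were 0.905, 6.53 and 3.85, then 17.7, 27.0 and 8.95, then 5.397, 19.1 and 21.2. Every Islet1Cre;Ebf1fl/- embryo was above the controls, while Dlx5/6::Cre;Ebf1fl/- replicate 1 lay among them. Cartpt had the largest fold change of the members, 4.81-fold in Islet1Cre;Ebf1fl/- (log2 2.27, 95% interval 0.77 to 3.77, adjusted p = 0.243, edgeR) and 3.96-fold in Dlx5/6::Cre;Ebf1fl/- (log2 1.99, 0.48 to 3.49, adjusted p = 0.189, edgeR). Without control replicate 2 these log2 values were 2.94 and 2.66, and without control replicate 1 they were 1.82 and 1.54. For the mean of both mutants the log2 value was 2.13 (0.76 to 3.49, adjusted p = 0.126, edgeR), which became 2.32 with an adjusted p of 0.0281 by edgeR without Dlx5/6::Cre;Ebf1fl/- replicate 1.

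Cck and Adcyap1 were barely detected in this tissue. Cck (ENSMUSG00000032532), the cholecystokinin precursor of cortical neurons among others, lies on chromosome 9 from 121489824 to 121495694 on the minus strand and had 10, 16 and 6 counts in controls, 10, 8 and 7 in Islet1Cre;Ebf1fl/- and 9, 6 and 63 in Dlx5/6::Cre;Ebf1fl/-. Replicate 3 of Dlx5/6::Cre;Ebf1fl/- stood alone, and its removal turned the log2 fold change from 1.26 (95% interval -0.37 to 2.89, adjusted p = 0.439, edgeR) to -0.33. In Islet1Cre;Ebf1fl/- the log2 fold change of Cck was 0.08 (-1.77 to 1.93, adjusted p = 0.999, edgeR). Adcyap1 (ENSMUSG00000024256), which encodes the precursor of PACAP, lies on chromosome 17 from 93199017 to 93206537 on the plus strand and had 0, 7 and 6 counts in controls, 1, 5 and 2 in Islet1Cre;Ebf1fl/- and 18, 19 and 4 in Dlx5/6::Cre;Ebf1fl/-. The 0 in control replicate 1 allows up to 3 counts, or 0.0919 CPM, for counting error only. In the fit without a filter the log2 fold change of Adcyap1 was -0.39 in Islet1Cre;Ebf1fl/- (95% interval -2.29 to 1.51, adjusted p = 1, edgeR) and 1.73 in Dlx5/6::Cre;Ebf1fl/- (0.16 to 3.30, adjusted p = 0.331, edgeR).

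**Figure D3:**
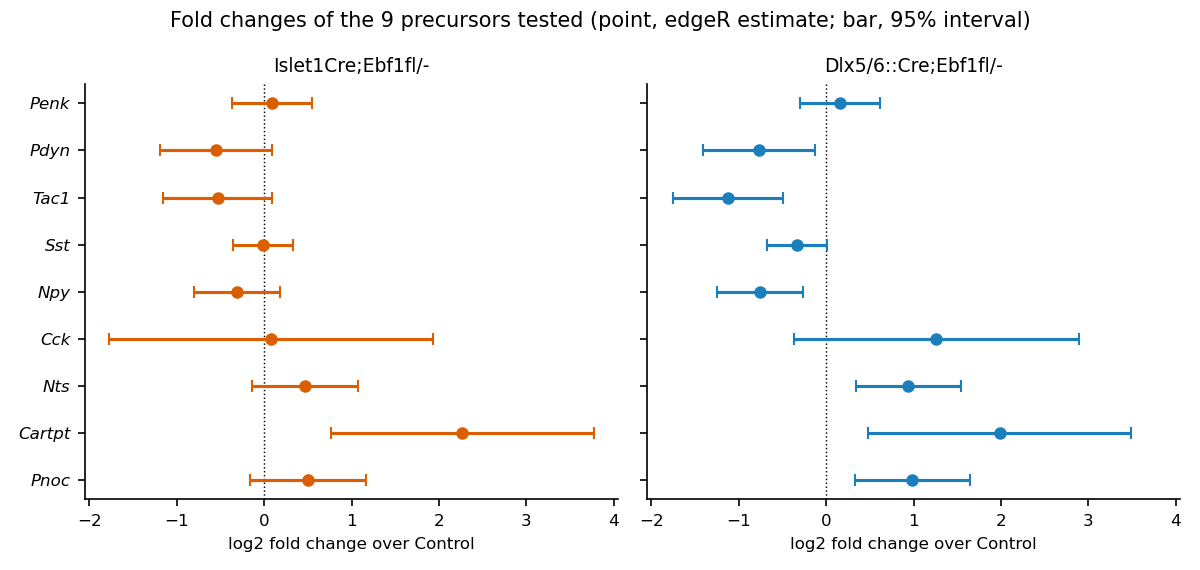
Log2 fold changes over control of the 9 precursors tested (points) with 95% intervals (bars) from edgeR, for Islet1Cre;Ebf1fl/- (left) and Dlx5/6::Cre;Ebf1fl/- (right), which share their controls. In Dlx5/6::Cre;Ebf1fl/- the intervals of Pdyn, Tac1 and Npy lie below 0 and those of Nts, Cartpt and Pnoc above 0 before adjustment for 16368 genes, and in Islet1Cre;Ebf1fl/- only that of Cartpt excludes 0.

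Between the mutants the differences of the 9 members ran from -0.59 (Tac1) to 1.18 (Cck) on the log2 scale, and all adjusted p values were at least 0.868 by edgeR. For the mean of both mutants over control, Tac1 stood at -0.82 (95% interval -1.35 to -0.30, adjusted p = 0.122, edgeR), Pdyn at -0.66 (adjusted p = 0.264), Npy at -0.53 (adjusted p = 0.240) and Nts at 0.70 (adjusted p = 0.223). The interval of the difference between the mutants for Tac1 was -1.21 to 0.04 and that for Penk was -0.38 to 0.53. A difference between the Cre lines was therefore not detectable for these genes with 3 embryos each, and equal levels are not shown.

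Within the embryos of one code prefix the direction was that of all embryos for Tac1, Pdyn, Npy, Nts, Pnoc and Cartpt, over few controls, but not for Sst among IE embryos. Among D embryos, with 3 mutants and 1 control, the log2 ratio of mean normalized counts was -1.71 for Tac1, -0.96 for Pdyn, -1.04 for Npy, -0.40 for Sst, 0.80 for Nts, 0.86 for Pnoc and 1.99 for Cartpt in Dlx5/6::Cre;Ebf1fl/-. Among IE embryos, with 3 mutants and 2 controls, it was -0.11 for Tac1, -0.43 for Pdyn, -0.14 for Npy, 0.03 for Sst, 0.55 for Nts, 0.58 for Pnoc and 2.26 for Cartpt in Islet1Cre;Ebf1fl/-. With the prefix as a covariate the log2 fold change of Tac1 in Dlx5/6::Cre;Ebf1fl/- was -1.71 (adjusted p = 0.0475, edgeR), and no other member was called. The D control is control replicate 3, the embryo with the highest Tac1 and with transcripts of both sexes, so these D ratios and this call rest on that library. Without it the log2 fold change of Tac1 over the other controls was -0.70.

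The spread of the members between embryos of a genotype was wide. The pooled standard deviation of log2 CPM was 0.24 for Sst, 0.34 for Penk, 0.36 for Npy, 0.39 for Nts, 0.45 for Tac1 and Pnoc, 0.47 for Pdyn, 0.81 for Cartpt and 0.96 for Cck. The median over all genes tested was 0.18, and every tested member was above it. The 95% interval of the fold change in Dlx5/6::Cre;Ebf1fl/- reached 0.34 on the log2 scale to either side for Sst, 0.63 for Tac1 and 1.63 for Cck.

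The balance of enkephalin to dSPN peptides can be read within an embryo, where depth cancels. The ratio of Penk to Tac1 counts was 1.90, 1.19 and 0.868 in controls, 2.21, 1.91 and 1.47 in Islet1Cre;Ebf1fl/- and 2.19, 3.39 and 2.87 in Dlx5/6::Cre;Ebf1fl/-. The ratio of Penk to Pdyn counts was 3.32, 2.24 and 2.58 in controls, 5.04, 5.23 and 3.05 in Islet1Cre;Ebf1fl/- and 5.09, 4.81 and 5.38 in Dlx5/6::Cre;Ebf1fl/-. Both ratios were higher in each Dlx5/6::Cre;Ebf1fl/- embryo than in any control, including replicate 1, while the Islet1Cre;Ebf1fl/- embryos overlapped the controls. The mean log2 ratio exceeded the control mean by 1.15 for Penk to Tac1 and by 0.93 for Penk to Pdyn in Dlx5/6::Cre;Ebf1fl/-, and by 0.56 and 0.69 in Islet1Cre;Ebf1fl/-. Without control replicate 3 or any other single embryo these differences stayed positive, the lowest being 0.29 for Penk to Tac1 in Islet1Cre;Ebf1fl/-. The ratio of Pdyn to Tac1 counts, from 0.337 to 0.573 in controls, overlapped in all genotypes. With 3 embryos against 3 the smallest p of an exact two-sided permutation test is 0.1, so the ratios are given as a description.

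**Figure D4:**
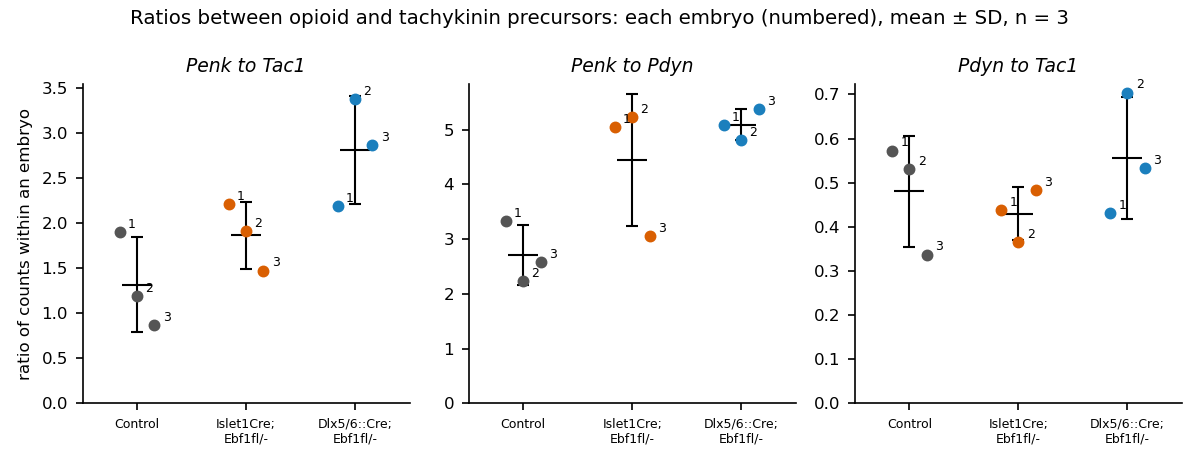
Ratios of counts within each embryo, numbered by replicate, for Penk to Tac1, Penk to Pdyn and Pdyn to Tac1, with bars for the mean ± SD of each genotype (n = 3). The values of all 3 Dlx5/6::Cre;Ebf1fl/- embryos are 2.19 or more for Penk to Tac1 and 4.81 or more for Penk to Pdyn, above the highest controls at 1.90 and 3.32.

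Several interneuron and dSPN peptides varied together across the 9 embryos. Pearson's r of log2 CPM was 0.93 for Sst with Npy, 0.91 for Pdyn with Npy, 0.87 for Tac1 with Npy, 0.85 for Pdyn with Sst and 0.84 for Pdyn with Tac1. After each genotype's mean was removed, r was 0.93 for Sst with Npy, 0.90 for Pdyn with Npy and 0.93 for Pdyn with Sst, but 0.71 for Tac1 with Npy and 0.54 for Tac1 with Sst (0.72 before). For Penk with Npy r was 0.50 over all embryos and 0.91 after that step. With Pdyn, Tac1, Sst and Npy, r after that step ran from 0.47 (Tac1) to 0.91 (Npy) for Penk. For Pnoc it ran from 0.44 (Tac1) to 0.82 (Sst), so the likeness was not confined to interneuron and dSPN peptides. These points share library depth and dissection, and Dlx5/6::Cre;Ebf1fl/- replicate 1 is the lowest of its genotype for all of these genes, so they are descriptions only. The genes most like Npy over the 9 embryos were Pcp4l1, Ngef and Zc3h15 (r of 0.99, 0.98 and 0.97). Those most like Tac1 were Gm281, Rxrg and Tppp (0.96, 0.95 and 0.95), and those most like Pdyn were Serpine2, Ucn3 and Glrx3 (0.98, 0.98 and 0.97).

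The promoters of 8 members were available from RefSeq on GRCm38.p6, as windows of 250 bases before to 50 bases after a start, and were read for the letters of 3 motifs on both strands. No window of the 8 members held the EBF site, a palindrome that is the core bound by Ebf proteins, which occurs in 0.904% of all 32851 windows, and this says only that these letters are not in the windows. The cAMP response element TGACGTCA, the site of CREB, occurred in Sst and Cartpt and in 1.79% of all windows. The AP-1 letters TGANTCA occurred in Nts and in 7.81% of all windows, and no match overlapped another. The windows with a match are printed together with that of Tac1, the member with the smallest adjusted p. They are read 5′ to 3′ along the gene's strand, and capitals mark the match, which began at position -48 from the start in Sst, -112 in Cartpt and -207 in Nts. The windows are chr16:23890795-23891094 on the minus strand for Sst, chr13:99900634-99900933 on the minus strand for Cartpt, chr10:102490369-102490668 on the minus strand for Nts and chr6:7554811-7555110 on the plus strand for Tac1.
Sst: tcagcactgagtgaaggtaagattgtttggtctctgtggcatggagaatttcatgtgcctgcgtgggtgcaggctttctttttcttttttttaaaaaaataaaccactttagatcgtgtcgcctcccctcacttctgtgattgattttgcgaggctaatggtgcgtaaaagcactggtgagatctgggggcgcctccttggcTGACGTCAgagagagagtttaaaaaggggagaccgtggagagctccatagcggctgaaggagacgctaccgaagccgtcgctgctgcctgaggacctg
Cartpt: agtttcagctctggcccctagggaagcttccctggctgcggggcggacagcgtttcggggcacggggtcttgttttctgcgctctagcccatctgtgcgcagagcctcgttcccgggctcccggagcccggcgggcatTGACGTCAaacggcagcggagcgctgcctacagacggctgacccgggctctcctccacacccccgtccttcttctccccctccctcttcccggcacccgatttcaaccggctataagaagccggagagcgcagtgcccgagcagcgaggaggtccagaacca
Nts: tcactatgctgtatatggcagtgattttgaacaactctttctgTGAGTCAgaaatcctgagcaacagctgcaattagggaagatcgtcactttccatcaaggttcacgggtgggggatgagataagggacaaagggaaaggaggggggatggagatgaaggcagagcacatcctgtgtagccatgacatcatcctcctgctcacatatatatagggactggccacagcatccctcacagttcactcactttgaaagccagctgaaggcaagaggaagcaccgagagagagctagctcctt
Tac1: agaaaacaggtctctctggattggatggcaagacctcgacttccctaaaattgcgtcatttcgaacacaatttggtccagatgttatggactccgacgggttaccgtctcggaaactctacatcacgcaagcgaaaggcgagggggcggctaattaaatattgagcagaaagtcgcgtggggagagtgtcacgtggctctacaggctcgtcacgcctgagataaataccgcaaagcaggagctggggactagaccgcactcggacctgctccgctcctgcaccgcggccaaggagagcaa

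The same letters thus stood near the start of Sst, among the highest members, and of Cartpt, among the lowest.

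Beyond the precursors, the genes that process peptides held differences that passed the test. Of 21 processing and dense-core vesicle genes, all tested, 2 rose and 0 fell in both comparisons with control, Pam and Sorcs1. Over all genes tested, 0.971% passed in Islet1Cre;Ebf1fl/- and 2.39% in Dlx5/6::Cre;Ebf1fl/-. At an unadjusted p under 0.05 by edgeR the list held 5 and 8 genes, against 7.93% and 15.5% of all genes. DESeq2 also called Cadps2 higher in Dlx5/6::Cre;Ebf1fl/-, where it called 857 of 16250 genes. For the mean of both mutants it also called Pcsk2 higher, among 775 of 17795 genes. The list's median log2 fold change was 0.11 in Islet1Cre;Ebf1fl/- and 0.12 in Dlx5/6::Cre;Ebf1fl/-, against -0.00 and 0.01 over all genes tested. Pam, the enzyme that amidates the ends of substance P, Npy, Cck and other peptides, had normalized counts of 2175, 2559 and 2279.8 in controls, 3660.1, 3688 and 3932 in Islet1Cre;Ebf1fl/- and 3637, 3578 and 3300.5 in Dlx5/6::Cre;Ebf1fl/-. All mutant embryos were above all controls. Pam rose by 0.68 on the log2 scale in Islet1Cre;Ebf1fl/- (95% interval 0.51 to 0.86, adjusted p = 0.00574, edgeR) and by 0.58 in Dlx5/6::Cre;Ebf1fl/- (0.41 to 0.76, adjusted p = 0.00447, edgeR). With the code prefix as a covariate Pam in Dlx5/6::Cre;Ebf1fl/- was 0.62 with an adjusted p of 0.111.

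Sorcs1, a sorting receptor of the Vps10 family, had normalized counts of 686, 989.8 and 896 in controls, 1749, 1545 and 1460.4 in Islet1Cre;Ebf1fl/- and 1504, 1597 and 1778 in Dlx5/6::Cre;Ebf1fl/-. The mutants and controls did not overlap. Sorcs1 rose by 0.88 (95% interval 0.60 to 1.17, adjusted p = 0.0154, edgeR) and 0.92 (0.64 to 1.21, adjusted p = 0.00524, edgeR) on the log2 scale. The first call was lost without Islet1Cre;Ebf1fl/- replicate 1 (adjusted p = 0.0899, edgeR) or replicate 2 (0.0774), with log2 fold changes of 0.81 and 0.90. The second was lost with the code prefix (adjusted p = 0.170, edgeR), with a log2 fold change of 0.86.

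Of 23 receptors of the members' peptides 20 were tested. By edgeR 0 passed in Islet1Cre;Ebf1fl/-, against 0.971% of all genes, and 1 fell in Dlx5/6::Cre;Ebf1fl/-, where 2.39% of all genes passed. At an unadjusted p under 0.05 the receptors numbered 3 in Islet1Cre;Ebf1fl/- (7.93% of all genes) and 9 in Dlx5/6::Cre;Ebf1fl/- (15.5%). DESeq2 called Oprm1 higher in Islet1Cre;Ebf1fl/-, and in Dlx5/6::Cre;Ebf1fl/- it called 2 receptors higher (Sstr1 and Sstr2) and 2 lower (Sstr5 and Cckbr). Over all genes DESeq2 called 394 of 16765 and 857 of 16250 in these comparisons. The receptor called by edgeR was Sstr5, which binds somatostatin. Its normalized counts were 70.6, 66.1 and 68.3 in controls, 44.9, 47.5 and 39.4 in Islet1Cre;Ebf1fl/- and 24.8, 20.0 and 35.9 in Dlx5/6::Cre;Ebf1fl/-, without overlap between any pair of genotypes. Sstr5 fell by 1.33 on the log2 scale in Dlx5/6::Cre;Ebf1fl/- (95% interval -1.90 to -0.77, adjusted p = 0.0241, edgeR), against -0.63 in Islet1Cre;Ebf1fl/- (-1.18 to -0.08, adjusted p = 0.4999, edgeR). The call in Dlx5/6::Cre;Ebf1fl/- was lost without any of control replicates 1, 2 and 3 (adjusted p = 0.0833, 0.0626 and 0.0799, edgeR) or without Dlx5/6::Cre;Ebf1fl/- replicate 2 (0.0837), with only the 6 embryos compared (0.0752) and with the code prefix (0.264), while the log2 fold change lay between -1.61 and -1.16 with an embryo left out and was -1.34 and -1.33 in the last pair of fits. The receptors with the highest mean counts did not pass. Oprl1, the nociceptin receptor, had 3604 ± 161 normalized counts in controls and log2 fold changes of -0.17 (adjusted p = 0.886, edgeR) and -0.14 (adjusted p = 0.577, edgeR). Adcyap1r1, the PACAP receptor, had 2198 ± 165 in controls and log2 fold changes of 0.07 (adjusted p = 0.999, edgeR) and 0.27 (adjusted p = 0.125, edgeR). The median log2 fold change of the receptors was -0.08 in Islet1Cre;Ebf1fl/- and 0.03 in Dlx5/6::Cre;Ebf1fl/-.

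Of 12 enzymes that degrade neuropeptides, all tested, 0 passed in any comparison by edgeR or DESeq2. In each mutant genotype against control 1 had an unadjusted p under 0.05 by edgeR, against 7.93% and 15.5% of all genes. Dpp3 and Prep had the highest counts, 3266 ± 52.5 and 2612 ± 179 in controls. The log2 fold changes were 0.00 and 0.02 for Dpp3 and -0.09 and -0.05 for Prep, with adjusted p values of at least 0.816 by edgeR.

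Among 30 other neuropeptide precursors 14 were tested, of which 1 fell in Islet1Cre;Ebf1fl/- (Gal) and 2 in Dlx5/6::Cre;Ebf1fl/- (Gal and Npff), while 0 rose by edgeR. Over all genes 0.971% passed in Islet1Cre;Ebf1fl/- and 2.39% in Dlx5/6::Cre;Ebf1fl/-. DESeq2 also called Cort, the cortistatin precursor, higher in both. Its normalized counts were 32.6, 25.3 and 34.6 in controls, 35.3, 139 and 104 in Islet1Cre;Ebf1fl/- and 72.3, 81.04 and 80.7 in Dlx5/6::Cre;Ebf1fl/-, each mutant embryo above each control. The log2 fold changes of Cort were 1.60 (adjusted p = 0.127, edgeR) and 1.34 (adjusted p = 0.133, edgeR). Gal, the galanin precursor, had normalized counts of 70.6, 64.5 and 69.3 in controls, 24.5, 17.03 and 26.8 in Islet1Cre;Ebf1fl/- and 11.9, 23.7 and 15.5 in Dlx5/6::Cre;Ebf1fl/-. Every mutant embryo was below every control. Gal fell by 1.62 on the log2 scale in Islet1Cre;Ebf1fl/- (95% interval -2.28 to -0.95, adjusted p = 0.0358, edgeR) and by 1.99 in Dlx5/6::Cre;Ebf1fl/- (-2.65 to -1.32, adjusted p = 0.00724, edgeR). The first call held in 2 of the 9 fits that left out an embryo, those without Dlx5/6::Cre;Ebf1fl/- replicate 1 or replicate 2. Both calls were lost with the code prefix at similar log2 fold changes (-1.60 and -2.01, adjusted p = 0.111 in each, edgeR).

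Npff, the precursor of the opioid-modulating peptide FF, had normalized counts of 88.6, 48.2 and 35.6 in controls, 23.1, 29.8 and 25.1 in Islet1Cre;Ebf1fl/- and 12.95, 13.7 and 6.52 in Dlx5/6::Cre;Ebf1fl/-. Its order was the same in all embryos of each genotype, with controls highest and Dlx5/6::Cre;Ebf1fl/- lowest. Npff fell by 2.39 on the log2 scale in Dlx5/6::Cre;Ebf1fl/- (95% interval -3.30 to -1.47, adjusted p = 0.0150, edgeR), against -1.13 in Islet1Cre;Ebf1fl/- (-1.98 to -0.28, adjusted p = 0.341, edgeR). The call was lost without control replicate 1 (adjusted p = 0.0535, edgeR), without Dlx5/6::Cre;Ebf1fl/- replicate 3 (0.0630), with only the 6 embryos compared (0.0626) and with the code prefix (0.326), at log2 fold changes of -1.93, -2.11, -2.39 and -1.69. Npff overlaps the gene Gm28047 on its own strand, so its counts are uncertain. The 14 precursors had a median log2 fold change of -0.15 in Islet1Cre;Ebf1fl/- and -0.29 in Dlx5/6::Cre;Ebf1fl/-.

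**Figure D5:**
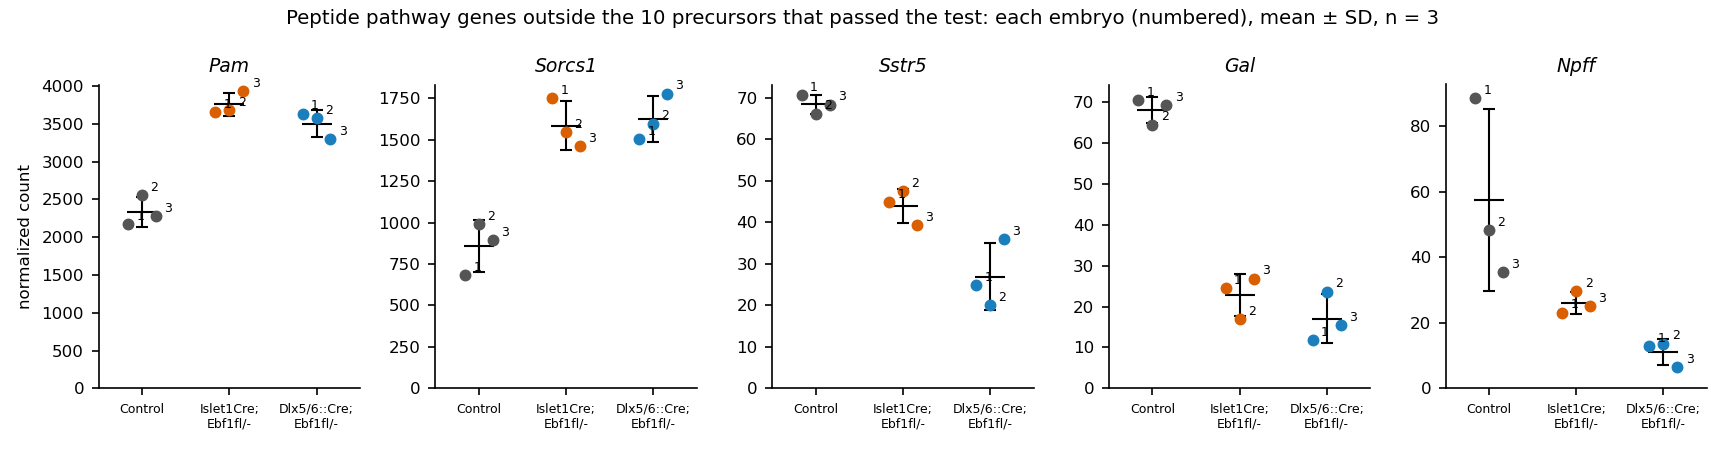
Normalized counts in each embryo, numbered by replicate, of the 5 peptide pathway genes outside the 10 precursors that passed edgeR's test in a comparison with control, with bars for the mean ± SD of each genotype (n = 3). Pam and Sorcs1 of all 6 mutant embryos lie above the 3 controls, and Sstr5, Gal and Npff of all 6 lie below.

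Markers of the cells that make the peptides gave a setting for these values. Over all genes edgeR called 0.971% in Islet1Cre;Ebf1fl/- and 2.39% in Dlx5/6::Cre;Ebf1fl/-, with 7.93% and 15.5% at an unadjusted p under 0.05. DESeq2 called 394 of 16765 and 857 of 16250 genes there, and 775 of 17795 for the mean of both mutants. Of 8 dSPN markers, which include Tac1 and Pdyn, 1 fell in Islet1Cre;Ebf1fl/- (Slc35d3) and 2 fell in Dlx5/6::Cre;Ebf1fl/- (Chrm4 and Slc35d3), with 0 higher. DESeq2 called 2 of them lower in Islet1Cre;Ebf1fl/-, 3 lower in Dlx5/6::Cre;Ebf1fl/- (with Isl1) and, for the mean of both mutants, 2 lower and 2 higher, the higher ones being Drd1 and Eya1. Eya1 was above every control in all mutant embryos (155.7 to 163.9 normalized counts against 87.5 to 128), with log2 fold changes of 0.50 (adjusted p = 0.398, edgeR) and 0.55 (adjusted p = 0.161, edgeR). Drd1, the dopamine receptor of dSPN, had log2 fold changes of 0.67 (adjusted p = 0.346, edgeR) and 0.53 (adjusted p = 0.293, edgeR). Eya1 and Drd1, with Meis2, Cort, Sstr1, Sstr2, Cckbr, Oprm1, Cadps2 and Pcsk2, are named after their values were seen. Of the 8 dSPN markers, 3 had a positive fold change in each mutant genotype. Chrm4, a muscarinic receptor of dSPN, fell by 1.48 on the log2 scale in Dlx5/6::Cre;Ebf1fl/- (adjusted p = 0.00391, edgeR) and Slc35d3 by 0.91 (adjusted p = 0.00425, edgeR). Both calls were lost with the code prefix at similar log2 fold changes (-1.44 and -0.85, adjusted p = 0.0881 and 0.111, edgeR). Slc35d3 fell by 0.62 on the log2 scale in Islet1Cre;Ebf1fl/- (adjusted p = 0.0408, edgeR). That call was lost without any 1 of 7 embryos and kept without Dlx5/6::Cre;Ebf1fl/- replicate 1 or 2, at log2 fold changes of -0.70 to -0.54. It was also lost with the code prefix (log2 -0.65, adjusted p = 0.109, edgeR). Of 7 iSPN markers tested, which include Penk, 0 passed by edgeR or DESeq2 in Dlx5/6::Cre;Ebf1fl/-, 1 had an unadjusted p under 0.05 and 7 had a positive fold change. Of 8 generic projection neuron markers 1 fell there, Foxp1 (log2 -0.53, adjusted p = 0.0305, edgeR). This call was lost without any 1 of 7 embryos and kept without Dlx5/6::Cre;Ebf1fl/- replicate 1 or 3, at log2 fold changes of -0.64 to -0.43. The Foxp1 call was also lost with the code prefix (log2 -0.66, adjusted p = 0.148, edgeR) and with only the samples compared (-0.53, adjusted p = 0.0942, edgeR). On the same list Meis2 was above every control in all mutant embryos, by 0.43 and 0.41 on the log2 scale (edgeR's adjusted p was 0.105 or more), and DESeq2 called it higher in each comparison with control. Summed levels of the 10 interneuron markers were 406 to 457 CPM in controls, 393 to 452 in Islet1Cre;Ebf1fl/- and 245, 394 and 330 in Dlx5/6::Cre;Ebf1fl/-, the lowest being replicate 1. Sst and Npy made up 227 of the 406 CPM in control replicate 1, so the sum partly restates these members. The other 8 interneuron markers summed to 178 to 209 CPM in controls, 179 to 220 in Islet1Cre;Ebf1fl/- and 125, 197 and 160 in Dlx5/6::Cre;Ebf1fl/-. Thalamic and hypothalamic markers summed to 5.34 to 17.4 CPM in all embryos, and their part in the values of Nts, Cartpt, Cck and Adcyap1 was not tested. Of 9 glial, vascular and blood markers tested, 0 passed by edgeR in either genotype against control, with 0 and 1 at an unadjusted p under 0.05 and 0 and 1 called by DESeq2.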

How the data were processed

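RNA from the striatum of 9 embryos was sequenced as poly(A) libraries with a stranded kit, and the authors deposited raw counts per Ensembl gene for each embryo. According to the methods and the submitters' processing notes, reads were aligned with STAR 2.4.0k to mm10, multi-mapped reads were removed and HTSeq-count 0.5.3 gave the counts, with no strand setting given in the sources used here. All 9 embryos entered 1 fit of edgeR 4.0.16 in R 4.3.3, with TMM scaling, filterByExpr at a minimum count of 10, the quasi-likelihood test and Benjamini-Hochberg adjustment at 0.05 over 16368 genes. Normalized counts are counts divided by DESeq2 1.42.0 size factors. Levels between genes are CPM per kilobase of union exon (GENCODE M21). Totals of 16548083 to 41507049 counts limit genes with few counts, and intervals on counts cover counting error only. The p-values set a difference against the spread between embryos within genotypes, with 3 embryos a genotype. In edgeR's main fit that spread was estimated from all 9 embryos, so each comparison of 2 genotypes also used the third.

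Members and lists were chosen with earlier results of these data known. Of each other list, the genes that passed in a comparison are named, or those with the highest mean counts where fewer than 2 passed. Alternatives were DESeq2's Wald test, other scaling and filters, fewer samples, the embryo code prefix or replicate number as a term, and each embryo left out. Promoters came from RefSeq (GRCm38.p6), where Penk and Pnoc had no match.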

Additional observations from a re-analysis of the deposited data

How the results depend on the processing

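Counts of genes past edgeR's threshold moved with the test and the embryos used. In Islet1Cre;Ebf1fl/- against control, 159 genes passed, against 394 with DESeq2, 311 without a filter, 61 with the code prefix, 259 with only the samples compared, and 15 to 397 with 1 embryo left out. In Dlx5/6::Cre;Ebf1fl/- 392 genes passed, against 857, 708, 32 and 181 in the same order, and 143 to 613. Between the mutants 0 passed, against 18, 13, 1 and 2, and 0 to 4. For both mutants 452 passed, against 775 with DESeq2, 278 with the prefix, and 178 to 775. Among the fits with 1 embryo left out, the highest counts in the 3 comparisons with control came without Dlx5/6::Cre;Ebf1fl/- replicate 1, and the cause was not tested.

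Members called in Dlx5/6::Cre;Ebf1fl/- numbered 0, against 3 with DESeq2, 5 without a filter, 1 with the prefix and 0 to 1 with an embryo left out. For both mutants they numbered 0, against 4 without a filter, 1 with the prefix and 0 to 2. Without a filter 658 of 26563 genes passed for both mutants. Replicate numbers did not pair the embryos (mean r of deviations -0.0235 for the same number and 0.0122 for different ones, with 4 of 9 embryos most like their own number). With the replicate block 2 members were called in Dlx5/6::Cre;Ebf1fl/- and 1 for both mutants, against 363 and 367 of 16368 genes.

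With the longest transcript as length, control levels in CPM per kilobase were 105.8 for Penk, 24.1 for Pdyn, 65.6 for Tac1 and 0.385 for Cck.

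The sign of some log2 fold changes turned, most of them near 0, but for Cck from 1.26 in Dlx5/6::Cre;Ebf1fl/-, 1.18 between the mutants and 0.67 for both mutants. In Islet1Cre;Ebf1fl/- Sst was 0.023 with the prefix and -0.12 to 0.12 with an embryo left out, and Cck was -0.16 with the prefix, -0.0052 with the replicate block and -0.19 to 0.47. Dpp3 was -0.000151 with the replicate block and -0.062 to 0.039. With an embryo left out, the ranges in Dlx5/6::Cre;Ebf1fl/- were -0.0073 to 0.41 for Penk, -0.33 to 1.72 for Cck, -0.027 to 0.059 for Dpp3 and -0.11 to 0.0072 for Prep. Between the mutants Penk was -0.15 with the prefix, and the ranges were -0.10 to 0.32 for Penk, -0.44 to 0.14 for Pdyn, -0.42 to 1.64 for Cck and -0.59 to 0.19 for Cartpt. For both mutants Cck ranged from -0.12 to 1.00.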
